A study of Monodelphis domestica with 7 samples.

Results

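C3, CFB-like and VSIG4 were followed in spinal cord RNA of the gray short-tailed opossum, Monodelphis domestica, a marsupial whose young are born at a very early stage of development. They were taken by gene identifier from the deposited table of read counts (C3 is ENSMODG00000002143, CFB-like is ENSMODG00000015093 and VSIG4 is ENSMODG00000012459) and make up 3 of its 21314 genes. The name CFB-like stands for a gene that the tables of the study tie to complement factor B by similarity, so its identity rests on that match. RNA came from the cord rostral to a complete transection at T10 made at P7 or P28 and collected 24 h later (P7+24h and P28+24h injured), or from the same segment of uninjured pups at P8 and P29 (P8 control and P29 control). Both sexes were used, and the RNA of 2 individuals was pooled for each library. The P29 control was 1 library, and each of the other groups had 2. At P7 whole litters were operated and controls came from other litters, so injury and litter cannot be told apart at that age. At P28 usually only part of a litter was operated, and its anaesthetised but uninjured littermates were the controls. The kind of control thus differed between the ages and cannot be told apart from age when the responses are compared. The replicate number is that of the sequencing run, for which cords were also collected separately, and the P29 control was in run 1 only. The question put to the data was how the response to injury compared between P7, when axons grow across the cut, and P28, when they do not.

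Complement is a set of proteins that tag and clear microbes, dying cells and debris. C3 is its central component: proteases called C3 convertases cleave it, and the fragments then bound to a surface are read by receptors on phagocytes. Factor B is the protease of the alternative pathway, where it binds to deposited C3b and builds more convertase, which makes the pathway an amplification loop. VSIG4, also called CRIg, is a receptor of tissue macrophages that binds C3b and iC3b and holds back the alternative pathway convertase. Plasma C3 and factor B are made largely in the liver, and within the central nervous system glia and infiltrating myeloid cells are known to express complement genes, C3 among them.

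The libraries held 3332232 to 6256074 counts, every run 2 library being deeper than every run 1 library, and 3 counts corresponded to 0.448 to 1.06 in CPM, the count scaled to the TMM-adjusted library total, which is the scale of all levels given here. The tissue label was borne out by GFAP of astrocytes, present at 256 to 2382 CPM, and by the 4 oligodendrocyte markers with an identifier, whose summed level was 110 to 339 CPM in cords collected at P8 and 48636 to 89876 CPM in those collected at P29. None of the neuron, lymphocyte or fibroblast markers had an identifier, so these cells were not checked. Summed over 5 erythroid genes the level was 2329 to 14854 CPM in cords collected at P8, 10592 CPM in the P29 control, and 23077 and 5299 CPM in replicates 1 and 2 of P28+24h injured. The 2 skeletal muscle genes with an identifier summed to 2.87 CPM in P29 control and to 68.1 and 24.4 CPM in P28+24h injured libraries. The part of blood or muscle in the results below was not tested.

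C3 was the member with the widest range. It had 6 and 12 counts in replicates 1 and 2 of the P8 control, or 1.48 and 1.97 CPM, and 12 and 46 counts in the P7+24h injured cords, or 3.15 and 6.87 CPM. The P29 control had 37 counts, or 10.6 CPM (95% counting interval 7.48 to 14.6), and the P28+24h injured cords had 97 and 480 counts, or 34.2 and 77.7 CPM. The groups did not overlap in CPM: the order was P8 control, P7+24h injured, P29 control, P28+24h injured. The share of all genes with that full order was not counted. The C3 level of the uninjured cord at P29 was thus above that of either injured cord at P8. Its counting interval, however, overlapped with that of P7+24h injured replicate 2 (5.03 to 9.16). In bulk tissue, fewer cells of a type and less RNA per cell cannot be told apart, and this holds for every level given here.

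CFB-like had another order. In the P8 control it had 8 and 25 counts, or 1.98 and 4.11 CPM, and in the P7+24h injured cords 32 and 56 counts, or 8.39 and 8.36 CPM. The P29 control had 16 counts, or 4.59 CPM (counting interval 2.62 to 7.46), and the P28+24h injured cords 37 and 264 counts, or 13.05 and 42.7 CPM. In CPM both injured groups therefore lay above both control groups. The counting interval of the P29 control still overlapped those of P7+24h injured replicates 1 (5.74 to 11.8) and 2 (6.32 to 10.9). The share of all genes with this order was not counted. The P29 control lay just above the higher P8 control, a step smaller than its counting interval, and these neighbours in the order did not differ beyond their spread.

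VSIG4 was the lowest in counts. Both P8 controls were near the limit of detection, with 5 and 3 counts, or 1.24 and 0.494 CPM, and the P7+24h injured cords had 14 and 37 counts, or 3.67 and 5.52 CPM. The P29 control had 7 counts, or 2.01 CPM (counting interval 0.808 to 4.14), and the P28+24h injured cords had 35 and 63 counts, or 12.3 and 10.2 CPM. Its order was that of CFB-like, with both injured groups above both controls, and how many genes share it was likewise not counted. Again the counting intervals of the P29 control and of the higher P8 control overlapped. The interval of the P29 control also overlapped those of P7+24h injured replicates 1 (2.01 to 6.16) and 2 (3.89 to 7.62). All 3 members passed the filter on low counts, but C3 and CFB-like had fewer than 10 counts in 1 control library each and VSIG4 in all 3 controls, so that VSIG4 passed the filter through the injured cords.

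**Figure D1:**
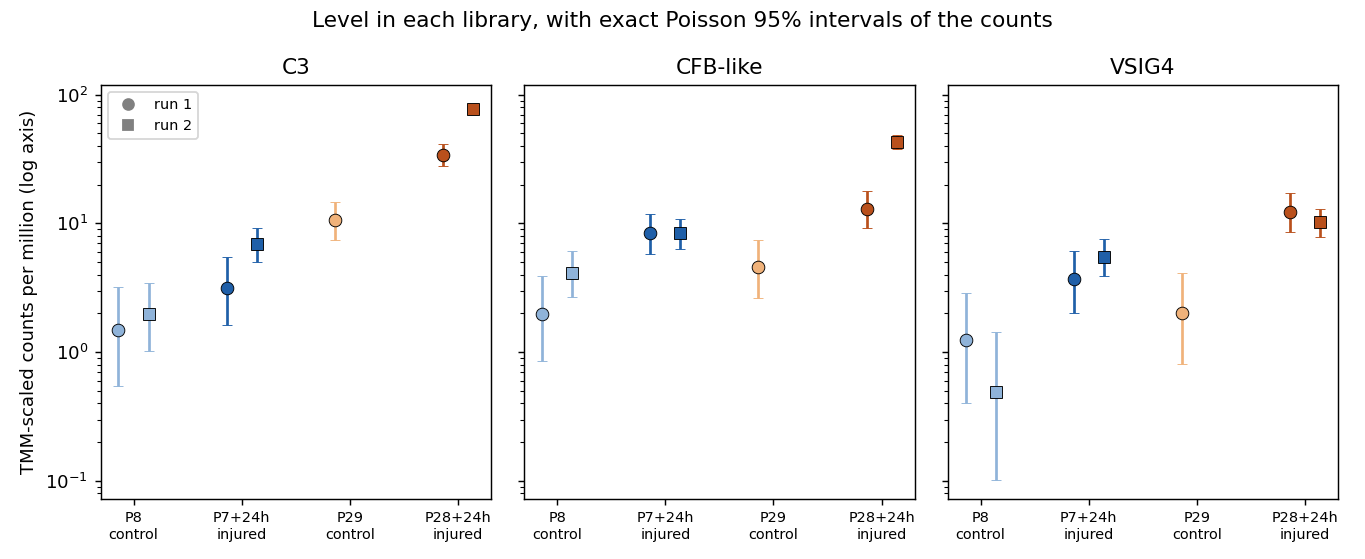
Level of C3, CFB-like and VSIG4 in each library, in TMM-scaled CPM on a log axis; circles are run 1, squares are run 2, and bars are exact Poisson 95% intervals of the counts. The level of C3 goes up through the groups from 1.48 to 77.7, whereas CFB-like and VSIG4 are lower in the P29 control than in the P7+24h injured cords.

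After transection at P7 the fitted level of VSIG4 was the furthest above control, 2.46 on the log2 scale (SE 0.60). The corresponding values were 1.53 (SE 0.64) for C3 and 1.42 (SE 0.68) for CFB-like. In all 3 genes both injured libraries lay above both controls, which was also true of 8.57% of all genes tested. The members were chosen with earlier results of these data known, so shares of all genes set beside them, here and below, are not independent evidence. The quasi-likelihood test of edgeR, with Benjamini-Hochberg adjustment over 13534 genes, called none of the 3 and no other gene (0%). An unadjusted p under 0.05 was seen for 69 genes (0.51%), C3 (0.0499) and VSIG4 (0.00566) among them. With the run as a block the quasi-likelihood test raised 0.0148% of genes, none of them a member (adjusted p 0.559 for C3, 1 for CFB-like and 0.425 for VSIG4). The likelihood ratio test with the same block, which raised 0.266% of genes, called VSIG4 (2.54, SE 0.60, Benjamini-Hochberg adjusted p 0.00127, edgeR) but not C3 (0.0586) or CFB-like (0.168). That call of VSIG4 rests on P8 controls of 5 and 3 counts. The gene passed the low-count filter through the injured cords, so the call is not independent of that choice. The paper, which used edgeR's exact test, names factor B and VSIG4 among the genes raised after injury at P7.

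The runs differed in which gene stood higher. In run 1 the log2 difference between injured and control cords was 0.91 for C3, 1.88 for CFB-like and 1.30 for VSIG4, and in run 2 it was 1.60, 0.95 and 2.70, computed from CPM with a prior count of 2. Every within-run value was positive, and the largest change belonged to CFB-like in run 1 and to VSIG4 in run 2. The run 2 value of VSIG4 stands on a control of 3 counts. Only VSIG4 was above 1 in both runs, as were 0.369% of all genes. VSIG4 passed the low-count filter through the injured cords and was reported by the study as raised on these same samples. That small share is therefore not independent evidence. Leaving out single libraries moved all 3 fitted values. Without replicate 2 of the P7+24h injured cords the value of C3 was 0.84, and without replicate 1 it was 1.96. Without replicate 1 of the P8 control the values of CFB-like and VSIG4 were 1.02 and 3.17, and without replicate 2 of that control they were 2.07 and 1.89.

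After transection at P28 the fitted values were alike in size, 2.40 (SE 0.67) for C3, 2.61 (SE 0.83) for CFB-like and 2.47 (SE 0.69) for VSIG4, or 5.28-, 6.11- and 5.53-fold. Both injured libraries lay above the only control in all 3, as they did for 22.2% of all genes. Without a block no gene was called by edgeR's quasi-likelihood test (0%, Benjamini-Hochberg adjusted p 1 for each member), and 157 genes (1.16%) had an unadjusted p under 0.05, all 3 members included. With the run as a block, 0.584% of genes rose, and C3 was called (log2 change 1.74, SE 0.32, or 3.35-fold, adjusted p 0.0393). The values of CFB-like (1.99, SE 0.59, or 3.96-fold) and VSIG4 (2.48, SE 0.68) then had adjusted p of 0.125 and 0.086 in the same edgeR test. The likelihood ratio test with the block raised 2.61% of genes and all 3 members, with Benjamini-Hochberg adjusted p of 0.00024, 0.02 and 0.00276 in edgeR. Here too VSIG4 had passed the low-count filter through the injured cords, with 7 counts in the P29 control. The run block assumes that the runs differ by the same factor at both ages, since P29 had no control in run 2.

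The counting intervals of the 2 injured P28 libraries were apart for C3 and CFB-like and overlapped for VSIG4. Against the P29 control of its own run, replicate 1 was higher by 1.65 on the log2 scale for C3, 1.43 for CFB-like and 2.39 for VSIG4, and replicate 2, compared with the same run 1 control, by 2.82, 3.11 and 2.13. Replicate 2 held 2.27 times the C3 and 3.28 times the CFB-like level of replicate 1, and 0.826 times its VSIG4 level. With run 1 alone VSIG4 therefore stood highest of the 3, and with replicate 2 it stood lowest. In all 6 values the difference was at least 1, which held in both libraries for 1.9% of all genes. Without replicate 2 the fitted values of C3 and CFB-like were 1.62 and 1.44, and without replicate 1 they were 2.86 and 3.20, while that of VSIG4 was 2.54 and 2.32.

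**Figure D2:**
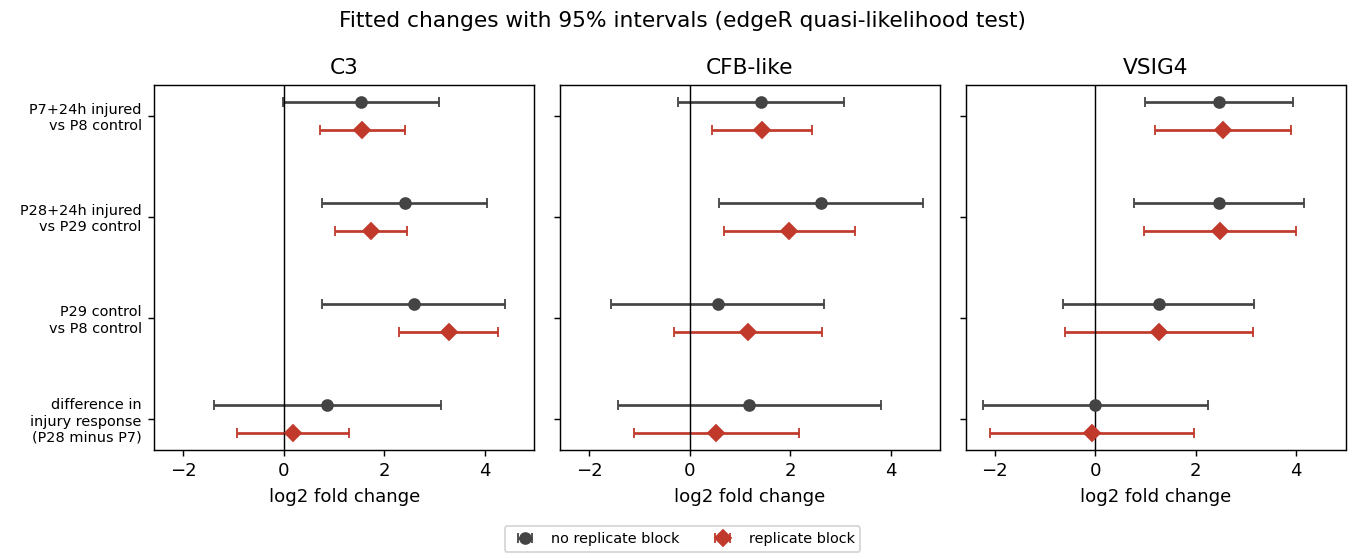
Fitted log2 fold changes with 95% intervals for each comparison, in the quasi-likelihood test without (grey circles) and with (red diamonds) the run as a block. The injury changes of VSIG4 were 2.46 at P7 and 2.47 at P28 without the block, and the intervals of the difference between ages include 0 in all 3 genes.

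The difference between the ages in the response to injury was tested directly. It was 0.87 on the log2 scale for C3 (95% interval -1.40 to 3.13), 1.19 for CFB-like (-1.43 to 3.80) and 0.01 for VSIG4 (-2.23 to 2.25), each as P28 response minus P7 response. No member and no other gene was called (0%, adjusted p 1 for each member, edgeR quasi-likelihood test with Benjamini-Hochberg adjustment), and 59 genes had an unadjusted p under 0.05. With the block the differences were 0.18 (-0.93 to 1.29), 0.54 (-1.11 to 2.18) and -0.06 (-2.09 to 1.97), and 0.0369% of genes, none of them a member, were raised. These intervals still allow a severalfold difference in either direction for VSIG4, so that equal responses at the 2 ages are not shown.

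Between the uninjured cords, C3 had the largest of the 3 fitted differences. The P29 control was above the P8 controls by 2.58 on the log2 scale for C3 (SE 0.74, or 5.99-fold), by 0.56 for CFB-like (SE 0.87) and by 1.26 for VSIG4 (SE 0.77). The single P29 library lay above both P8 controls in all 3, as it did for 40.4% of all genes. The edgeR quasi-likelihood test without a block raised 1.71% of genes and none of the members, C3 having a Benjamini-Hochberg adjusted p of 0.138, CFB-like 0.749 and VSIG4 0.425. With the block 12.5% of genes were raised and C3 was called (3.28, SE 0.45, or 9.72-fold, adjusted p 0.000262), while CFB-like (1.16, SE 0.67, 2.24-fold against 1.47-fold without the block) and VSIG4 (1.27, SE 0.85) had adjusted p of 0.225 and 0.286 in the same edgeR test. C3 was also called by edgeR's exact test, by DESeq2 and by edgeR's likelihood ratio test with the block, which raised 13.6% of genes (Benjamini-Hochberg adjusted p 0.0287, 0.0472 and 3.29e-10). Within run 1 alone the differences were 2.53, 1.06 and 0.55. All 3 members met all 3 orderings, injured above control at both ages and P29 above P8 in uninjured cords, and so did 1.49% of genes.

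The make-up of the C3 and CFB-like pair did not overlap between the ages in these libraries. How many other pairs of genes do the same was not counted. C3 gave 42.9% and 32.4% of the summed counts of the pair in P8 control and 27.3% and 45.1% in P7+24h injured libraries, against 69.8% in P29 control and 72.4% and 64.5% in P28+24h injured libraries. The exact binomial 95% interval was widest, 17.7% to 71.1%, in the P8 control of 14 counts. Written as C3 counts per CFB-like count, the ratio was 0.375 to 0.821 in the 4 libraries collected at P8 and 1.82 to 2.62 in the 3 collected at P29. The ages did not overlap, and the exact two-sided permutation test gave p = 0.0286, the smallest value that 35 splits allow. The lack of overlap had been seen first, so this p adds nothing to it. The splits also treated injured and control libraries of both runs as exchangeable. Adjusted by Benjamini-Hochberg over the 6 ratio comparisons made, the exact permutation p was 0.171, and the comparison was chosen after the values had been seen. Between injured and control libraries the mean ratio differed by 0.23 on the log2 scale (exact permutation p = 0.857). The share is read only across libraries, since gene lengths were not at hand and counts of different genes are not levels on a common scale.

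**Figure D3:**
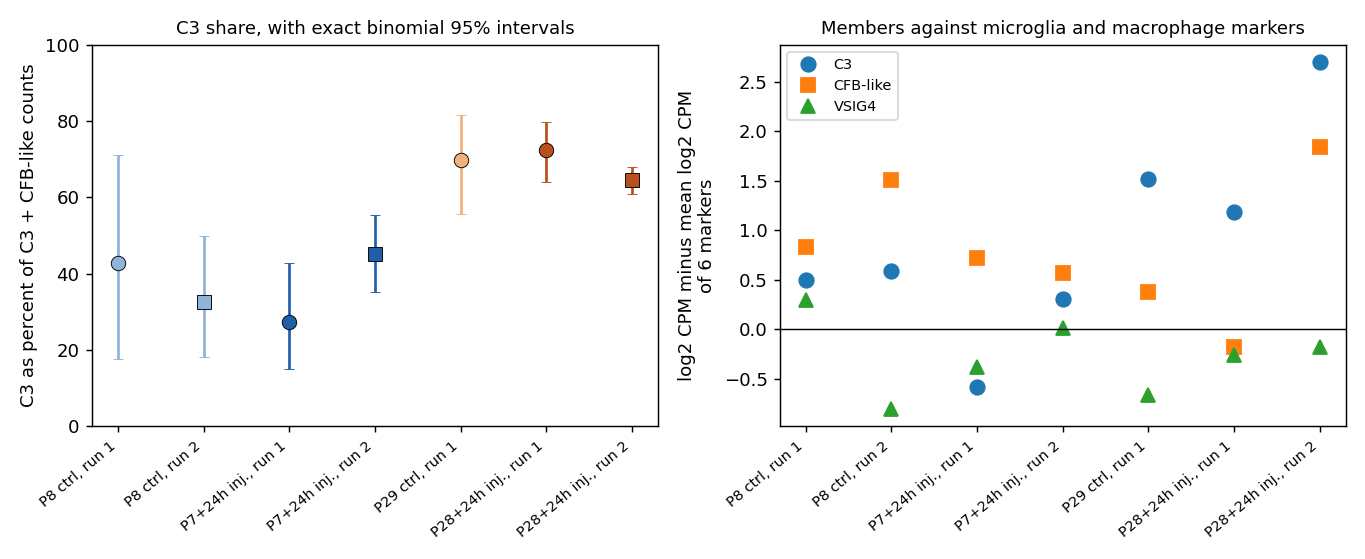
Left, C3 counts as a percent of C3 plus CFB-like counts in each library, with exact binomial 95% intervals; right, log2 CPM of each member minus the mean log2 CPM of 6 microglia and macrophage markers in the same library, to be compared across libraries and not between genes. The 3 libraries collected at P29 sit at 64.5% to 72.4% C3, above the 4 collected at P8, and VSIG4 stays between -0.80 and 0.29 on the right while C3 reaches 2.70.

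The markers of microglia and macrophages that had an identifier were above control in the injured cords at both ages. Identifiers came only from tables of genes that the study selected on these same samples, so this direction is not independent evidence. Of 14 such markers 6 had an identifier: CSF1R, the receptor of the growth factor that microglia need to survive, the signalling pair TREM2 and TYROBP, the scavenger receptor MARCO, a gene similar to the mannose receptor MRC1, and the myeloid transcription factor SPI1. Summed over the 6, the level was 8.16 and 8.23 CPM in P8 control, 33.3 and 34.0 CPM in P7+24h injured, 35.3 CPM in P29 control, and 135 and 85.2 CPM in P28+24h injured libraries. Only TREM2, in replicate 1 of the P8 control, was at 0 counts. The fitted injury difference of the 6 had a median of 1.90 at P7 and 2.30 at P28, beside 0.01 and 0.05 over all genes, and none was called by the quasi-likelihood test without or with the block. The likelihood ratio test with the block called 4 of the 6 at P7 and 5 at P28, where it raised 0.266% and 2.61% of all genes. In P8 control replicates 1 and 2 and the P29 control, CSF1R had 3, 7 and 7 counts and MARCO 1, 2 and 2. MRC1-like had 5, 10 and 2 there. These genes passed the low-count filter through the injured cords, so calls of them are not independent of that choice. Nearly all of the gap between the injured P28 sums was TYROBP, at 63.5 and 14.1 CPM in replicates 1 and 2, whereas CSF1R was 6.70 and 21.9 CPM and so higher in replicate 2, as were C3 and CFB-like. The markers were not alike in uninjured cords either: MRC1-like was 1.24 and 1.65 CPM in P8 control and 0.574 CPM in P29 control, while the 3 members were higher in the latter. Across the 7 libraries Pearson r with C3 was from 0.41 for MRC1-like to 0.94 for SPI1, with CFB-like from 0.59 for TYROBP to 0.97 for CSF1R, and with VSIG4 from 0.74 for MRC1-like to 0.93 for SPI1.

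Relative to the mean log2 level of those 6 markers in the same library, VSIG4 varied from -0.80 to 0.29 over the 7 libraries, and its values in injured cords were -0.38, 0.01, -0.26 and -0.18. CFB-like varied from -0.18 to 1.84. C3 varied from -0.58 to 2.70: it was 0.49 and 0.59 in P8 control, -0.58 and 0.30 in P7+24h injured, 1.52 in P29 control and 1.18 and 2.70 in P28+24h injured libraries. On this relative scale C3 was higher in every library collected at P29 than in any collected at P8. How many of all genes do the same was not counted. The marker mean is itself uncertain, since MARCO and MRC1-like had 2 counts each in the P29 control. The part of these cells in the differences between groups was not tested.

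Of 8 neutrophil markers 3 had an identifier, S100A8, S100A9 and CSF3R, whose summed level was 17.1 and 3.62 CPM in P8 control, 26.0 and 6.72 CPM in P7+24h injured, 5.45 CPM in P29 control, and 17.3 and 18.1 CPM in P28+24h injured libraries. In cords collected at P8 these sums were higher in run 1 than in run 2 in both groups, and the groups overlapped. The 3 members did not overlap there, as was true of 8.57% of all genes. Within each run the injured sum was above control, and at P28 both injured sums were above the only control. The fitted injury difference of these markers had a median of 0.88 at P7 and 2.35 at P28, beside 0.01 and 0.05 over all genes. Their identifiers came from the same tables of selected genes. Of 9 hepatocyte markers only ALB, for albumin, had an identifier, and it had 0 counts in all 7 libraries.

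Among the tested genes those with the pattern most like C3 across the 7 libraries had Pearson r of 0.982 to 0.995 in log2 CPM. The nearest was LBP, the plasma protein that hands bacterial lipopolysaccharide to its receptor, at r = 0.995. LBP had 1 and 2 counts in P8 control, 5 and 17 in P7+24h injured, 17 in P29 control and 75 and 282 in P28+24h injured libraries, so it followed the order of C3 group by group and was likewise higher in replicate 2 at P28+24h. For CFB-like the 5 nearest genes had r of 0.963 to 0.976, and the only named gene among them was CSF1R (r = 0.966). For VSIG4 they had r of 0.974 to 0.983 and included CTSS, the lysosomal protease cathepsin S (r = 0.983), and FCER1G, the signalling chain of Fc receptors (r = 0.980), both expressed by myeloid cells. The members were less alike among themselves: r was 0.88 between C3 and CFB-like, 0.84 between C3 and VSIG4 and 0.82 between CFB-like and VSIG4. With 7 libraries that share groups and runs, these values only describe likeness, and 11 of the 15 nearest genes had no name.

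The other complement genes gave the surroundings of the 3. Of a list of 53 complement symbols 13 had an identifier, 10 beside the members, and identifiers came only from tables of genes that the study selected on these same samples, so their direction is not independent evidence. After injury at P7, 9 of the 10 had a fitted value above 0 with a median of 0.94, against 0.01 over all genes, and after injury at P28 all 10 did with a median of 1.57, against 0.05. None was called in either by the quasi-likelihood test without the block. With the block 0 of 10 were called at P7 and 4 at P28, where 0.0148% and 0.584% of all genes were raised. The likelihood ratio test with the block called 4 and 9, where 0.266% and 2.61% of all genes were raised.

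The classical pathway opens with C1q, whose chains are C1QA, C1QB and C1QC, and with its proteases C1R and C1S. The C1q chains had blocked values of 1.72 to 2.08 at P7 (adjusted p 0.073 to 0.117) and of 1.29 to 1.64 at P28 (0.0624 to 0.0674, edgeR quasi-likelihood test, Benjamini-Hochberg adjustment). In uninjured cords all 3 chains rose from P8 to P29 in that test, by 2.09, 2.05 and 2.04, as C3 did in the same fit. The proteases C1R and C1S were 0.71 and 1.02 at P7, where they, like the chains, were not called, and at P28 C1R rose by 2.50 (SE 0.43, adjusted p 0.0298) and C1S by 2.32 (SE 0.46, adjusted p 0.048) in the same edgeR test. C4-like, similar to the C4 that C1S cleaves, was 0.01 at P7 and 1.61 at P28 (adjusted p 1 and 0.107).

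In the alternative pathway, CFP encodes properdin, which stabilises the convertase built from C3b and factor B. It rose at P28 in the blocked edgeR quasi-likelihood test (1.66, SE 0.32, Benjamini-Hochberg adjusted p 0.0399) and was 0.65 at P7 (adjusted p 1). SERPING1, the C1 inhibitor, rose at P28 by 1.89 (SE 0.26, adjusted p 0.0217) and was 0.45 at P7 (adjusted p 1) in that edgeR test. C7, of the terminal pathway that forms the membrane attack complex, was 0.09 at P7 and 2.67 at P28 with an SE of 0.87 (adjusted p 0.122), on 5 counts in the P29 control. ITGB2, the shared chain of the iC3b receptors CR3 and CR4, was 1.41 at P7 and 1.12 at P28 (adjusted p 0.427 and 0.197), and it rose from P8 to P29 in uninjured cords (1.43, adjusted p 0.0342) in the same edgeR test. Whether any of these responses differed between the ages was tested in the quasi-likelihood fits as well, and none of the 10 was called. The likelihood ratio test with the block called SERPING1 for that difference (1.44, SE 0.37, Benjamini-Hochberg adjusted p 0.0123, edgeR), where 1.19% of all genes were raised.

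**Figure D4:**
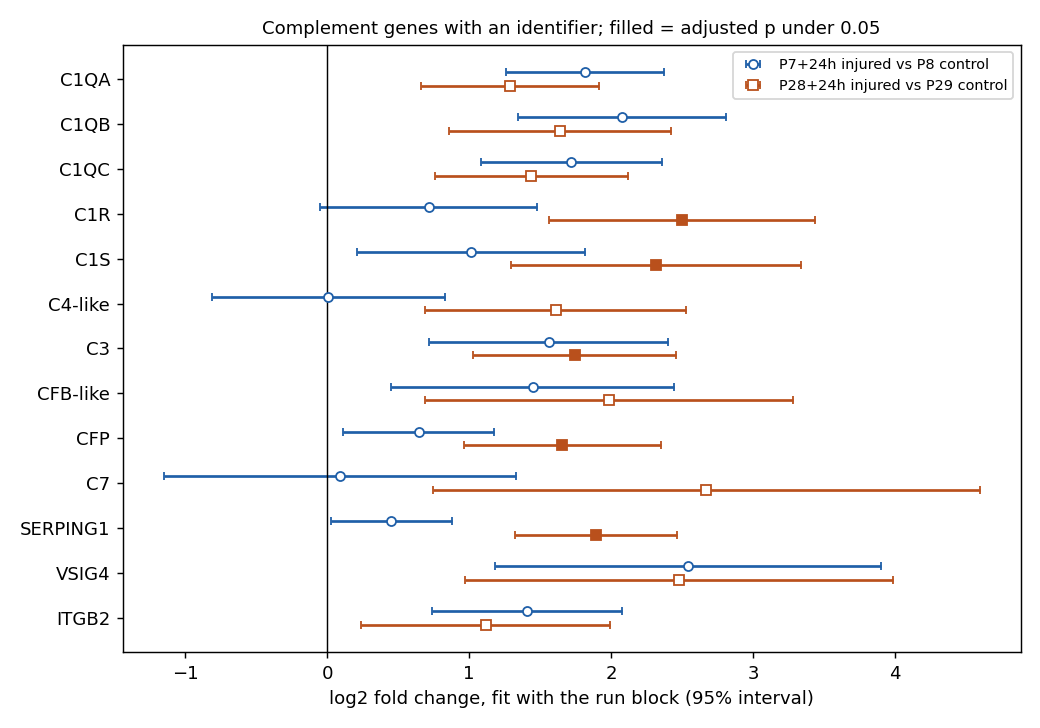
Log2 fold changes of the 13 complement genes with an identifier, in the fit with the run as a block, with 95% intervals; blue circles are P7+24h injured against P8 control, orange squares are P28+24h injured against P29 control, and filled symbols have an adjusted p under 0.05. C1R, C1S, C3, CFP and SERPING1 are filled at P28, and no gene is filled at P7.

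Between the injured libraries at P28 the complement genes did not move as 1 group. ITGB2 was 2.83 times as high in replicate 2 as in replicate 1, like C3 and CFB-like. The other 10 of the 13 were lower in replicate 2, from 0.348 times the level in replicate 1 for C7, 0.392 for CFP and 0.409 for C1QB to 0.826 for VSIG4. The median gene differed by 0.02 on the log2 scale between the same libraries.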

How the data were processed

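Single-end reads of 100 bases were trimmed by the authors, aligned with Bowtie2 against the opossum genome (Ensembl release 69) and counted per gene with HTSeq; the deposited values are whole-number counts for 21314 genes, without normalization. Here filterByExpr at a minimum count of 10 kept 13534 genes, which were scaled by TMM and fitted over 4 groups (3 residual degrees of freedom). Tests were edgeR's (4.0.16) quasi-likelihood tests, with Benjamini-Hochberg adjustment over all genes and a call at an adjusted p under 0.05 with a fold of at least 2. The P29 control has 1 library, so its spread was taken from the other groups. Standard errors are Wald errors of that fit. The replicate number in the labels is the run, with separately collected samples, and the run 2 minus run 1 differences of the groups correlated across genes (r = 0.80, 0.70 and 0.74), so the numbers pair the samples; the blocked fits had 2 residual degrees of freedom. Alternatives were edgeR's exact and likelihood ratio tests, DESeq2 1.42.0, other scalings and filters, thinned counts and leaving out each replicate; leaving out replicates within the blocked fit was added after seeing the data. The quasi-likelihood tests without and with the block were tested on simulated data; the other tests were not. Intervals and floors cover counting error only.

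Gene names come from identifiers in the study's supplementary tables; no identifier matched the reference table (0). CFB-like, C4-like and MRC1-like are names by similarity, and reads shared with a paralog could have been counted on either copy. Named genes are the members, the complement genes with an identifier and the 5 genes per member most alike across libraries. The members and lists were chosen with earlier results of these data known. R 4.3.3 was used.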

Additional observations from a re-analysis of the deposited data

How the results depend on the processing

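The injury differences at each age and the difference between uninjured cords kept their sign in the 3 genes under every alternative run. The difference between ages in the injury response did not keep its sign in any of them. When single libraries were left out of the blocked fit, it fell as low as -0.11 for C3 and -0.79 for CFB-like. With the replicate block, C3 was called after injury at P28 (1.74) and between the uninjured cords (3.28), and the block changed no other call of the 3 genes in the quasi-likelihood test. The likelihood ratio test with the block also called VSIG4 at P7 (2.54), C3, CFB-like and VSIG4 at P28 (1.74, 1.98 and 2.48) and C3 between uninjured cords (3.29). C3 between uninjured cords was called by the exact test (2.58), DESeq2 (2.58) and the fit on the compared groups only (2.59). The difference of VSIG4 between ages, 0.01, turned to -0.015 with DESeq2, -0.054 and -0.060 with the block in the likelihood ratio and quasi-likelihood tests, -0.0030 with RLE factors and -0.010 without a filter; the cause was not tested.

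Leaving out each replicate moved C3, CFB-like and VSIG4 between 0.84 and 1.96, 1.02 and 2.07, and 1.89 and 3.17 at P7, between 1.62 and 2.86, 1.44 and 3.20, and 2.32 and 2.54 at P28, between 2.41 and 2.82, 0.16 and 1.20, and 0.69 and 1.97 between uninjured cords, and between 0.10 and 1.57, 0.03 and 1.79, and -0.70 and 0.58 for the difference between ages. With the replicate block as well, the ranges were 1.04 to 1.80, 0.87 to 2.41 and 1.87 to 3.23 at P7, 1.62 to 1.96, 1.44 to 2.92 and 2.08 to 2.70 at P28, 2.82 to 3.58, 0.68 to 1.54 and 0.69 to 2.05 between uninjured cords, and -0.11 to 0.66, -0.79 to 1.57 and -0.82 to 0.78 for the difference. These blocked fits had 1 residual degree of freedom, and edgeR then took nearly all of the spread from the other genes (median total degrees of freedom 244 to 13804, against 10.9 with all libraries). Their calls are therefore nearly those of a likelihood ratio test, are not set against the blocked quasi-likelihood calls, and do not bear on how firm the call of C3 at P28 is (adjusted p 0.0393). The lone sample of a group is assumed to vary like the others.

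Of all genes, the exact test called 5 at P7, 3 at P28 and 972 between uninjured cords, against 0, 0 and 242. DESeq2 called 2 at P7 and 862 between uninjured cords, the replicate block 2, 102, 2893 and, for the difference, 5, and the likelihood ratio test with it 36, 493, 3242 and 199. The compared groups alone gave 2 at P28 and 989 between uninjured cords, and library size alone 138 there. Leaving out each replicate gave 0 to 139 between uninjured cords, and in the blocked fits with 1 residual degree of freedom 7 to 51 at P7, 300 to 960 at P28, 2257 to 3468 between uninjured cords and 24 to 719 for the difference, which compare with the likelihood ratio counts rather than the blocked quasi-likelihood counts. Scaling by library size alone shifted the median of all genes by 0.12 at P28 and by -0.33 between uninjured cords, where C3 was 2.52 and 2.29.

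The difference between ages could not be run as an exact test or on the compared groups only, and the P29 control could not be left out. VSIG4 in the P8 controls, at 5 and 3 counts, is limited by depth.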
